A study of Mus musculus with 4 samples.

Results

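The genes described here encode the enzymes and binding proteins that set, read and remove histone acetylation and the methylation of lysine 9 of histone H3 (H3K9). The group was given as a list of 45 gene names, chosen for their function and for the histone acetylation theme of the study, and its members were taken as the rows of the 4 deposited expression tables with those names. In all, 39 of the 45 genes were listed, among 8797 genes listed altogether, and 14 of the 39 had a B6-allele frequency in every mouse, among 3632 such genes. Hdac4, Hdac7, Sirt6, Kat6b, Crebbp and Uhrf1 were not listed, also not under an older symbol, and were not analysed here.

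The tables hold liver mRNA of 4 female F1 hybrids, all 5 months old, between the inbred strains C57BL/6J (B6) and MSM/Ms (MSM), which derive from different subspecies of the house mouse. In 2 mice the mother was MSM and the father B6, called MSM-mother mouse 1 and mouse 2 after their replicate numbers, and in the other 2, B6-mother mouse 1 and mouse 2, the parents were reversed. No mouse had a treatment or an engineered allele, and each carried 1 genome of each strain. For every gene there was a level in FPKM (fragments per kilobase of transcript, scaled to the mapped fragments of the library) and, for some, the fraction of allele-informative reads that came from the B6 allele. A fraction of 0.5 means equal reads from both alleles. Reciprocal crosses let an effect of the strain of an allele be told from an effect of the parent that passed it on.

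Histone acetyltransferases add acetyl groups to lysines, which is typical of active promoters and enhancers, and histone deacetylases take them off, mostly as parts of corepressor complexes. Bromodomain proteins bind acetylated lysines. H3K9 carries either acetylation or methylation. Its methylation is written by SETDB1, recruited by TRIM28 to the sites of Krüppel-associated box zinc finger proteins on transposable elements, or by the EHMT1 and EHMT2 enzymes, is bound by HP1 proteins, and is erased by demethylases such as KDM3A and KDM4A.

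Some features of the whole series touch the members' values. Hepatocyte markers had the highest levels of the marker lists, from 13678 to 18564 FPKM summed over the 7 of 8 listed, and none of 6 T and B cell markers was listed. All 6 Kupffer cell markers were higher in both B6-mother mice than in both MSM-mother mice, with sums of 123 and 114 FPKM against 168 and 153. Of the proliferation markers 2 of 12 were listed. In bulk tissue, fewer cells of a type and less RNA per cell cannot be told apart. MSM-mother mouse 1 stood apart: its levels fell with transcript length, and a microRNA locus (Mir3470a) was listed at 47025 FPKM in it and at 0 in the other 3 mice. The tables hold no read numbers, so the depth behind each value is unknown, and 2 mice against 2 cannot give an exact two-sided permutation p below 0.333. No source used here states whether the 2 mice of a cross came from 1 litter, so a p-value measures the spread between these mice only. For each gene limma, the test used here, estimates that spread partly from all genes tested.

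At the level of FPKM, the members were moderately expressed genes. The median of their mean level was 9.03 FPKM, against 11.5 FPKM over all genes listed, and 17 of 39 lay above that median of all. The lowest was Dnmt3a at 2.63 ± 0.56 FPKM (SD, n = 4), close to the lowest mean of any gene listed, 2.50 FPKM. The highest was Sirt3 at 57.2 ± 6.54 FPKM (SD, n = 4). The plot of levels by gene shows that most roles held both high and low members. The spread over the 4 mice was that of other genes, with a median coefficient of variation of 11.7% against 11.4% over all genes, from 2.24% for Brd3 to 26.9% for Hdac5.

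**Figure D1:**
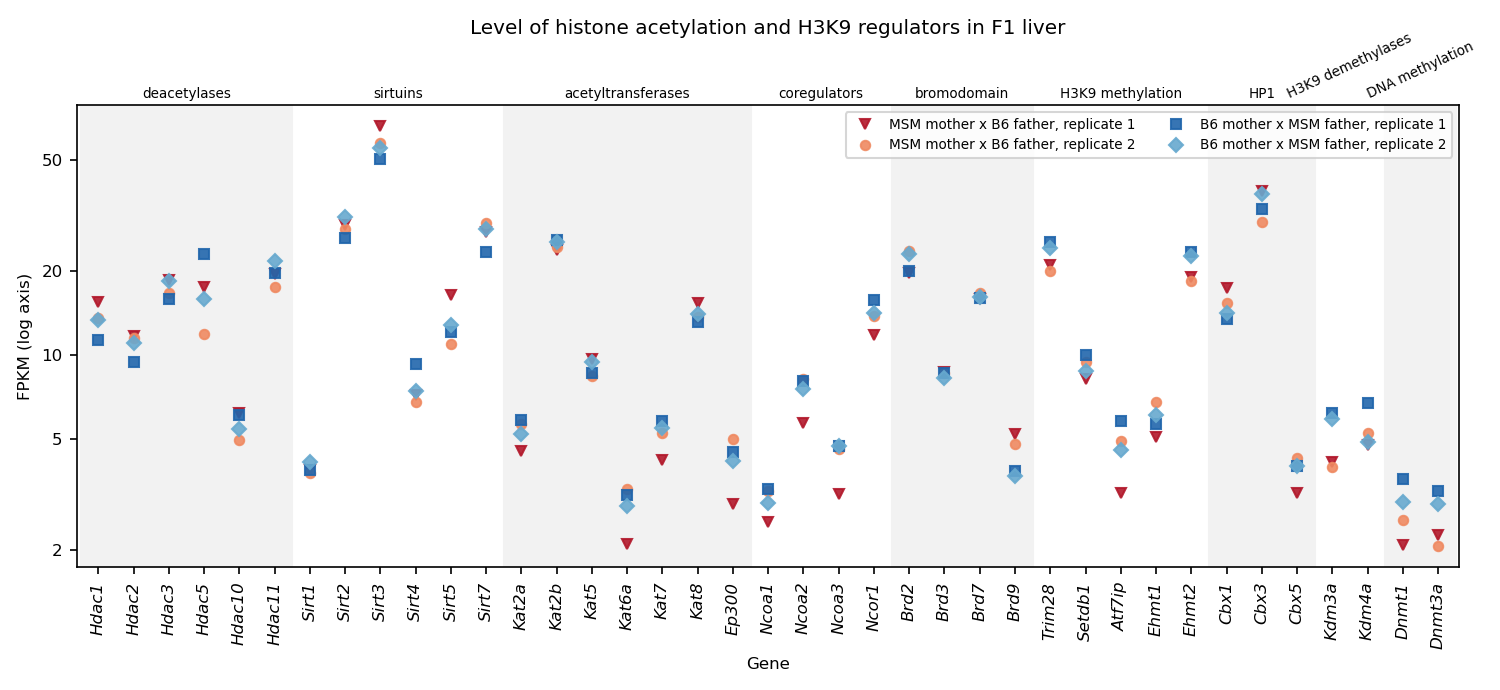
FPKM of each of the 39 listed members in each of the 4 mice, on a log axis, with members grouped by role along the x axis; every point is 1 mouse. Sirt3 is the highest member, between 50.2 and 65.9 FPKM, and the red triangles of MSM-mother mouse 1 (replicate 1 of MSM mother x B6 father) lie lowest for 17 members.

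Among the deacetylases, the class I enzymes Hdac1, Hdac2 and Hdac3, the catalytic cores of the SIN3, NuRD, CoREST and NCoR complexes, were all listed and of similar level. Hdac1 had 15.5 and 13.6 FPKM in MSM-mother mice 1 and 2 and 11.3 and 13.3 FPKM in B6-mother mice 1 and 2. Hdac2 had 11.7, 11.5, 9.41 and 11.0 FPKM in the same order, which is kept for every set of 4 values here. Hdac1 was 1.19 to 1.33 times Hdac2 in each mouse. Hdac3, the enzyme of the NCoR complex that restrains lipid genes in liver, had 18.5, 16.7, 15.9 and 18.4 FPKM. The summed level of the 3 enzymes lay between 36.6 and 45.7 FPKM.

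Of the class IIa enzymes, which act in liver as signal-regulated corepressors, Hdac5 alone was listed. Its levels were 17.6, 11.9, 23.0 and 15.9 FPKM, the widest relative spread of any member. In both crosses replicate 1 was above replicate 2, so the mice of the crosses overlapped. A list of genes that follow the time of day also divided by replicate number, mostly the other way. Of the 10 listed, 6 were lower in replicate 1 than in replicate 2 in both crosses. Nr1d1 was higher in replicate 1 in both, at 37.7, 21.5, 66.7 and 48.2 FPKM, and Clock, Cry1 and Dbp were mixed. The share of all genes with such a division is not given here. The summed level of the list was 166 and 165 FPKM in the mice numbered 1 and 198 and 215 FPKM in those numbered 2. Per1, for example, had 5.17, 14.3, 1.90 and 5.53 FPKM. The part of these genes in the spread of Hdac5 was not tested. Hdac10, a deacetylase of polyamines, ranged from 4.95 to 6.22 FPKM, and Hdac11, the class IV enzyme, from 17.6 to 21.6 FPKM.

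The sirtuins, deacylases that consume NAD, held the most strongly expressed member. The mitochondrial deacetylase gene Sirt3 had 65.9, 57.6, 50.2 and 55.2 FPKM. Sirt3 was 12.9 to 17.02 times Sirt1, the nuclear enzyme best known from fasting metabolism, which had 3.87, 3.79, 3.88 and 4.13 FPKM and varied little, with a coefficient of variation of 3.73%. The other mitochondrial sirtuins were lower than Sirt3: Sirt5, which removes succinyl and malonyl groups, ranged from 10.9 to 16.4 FPKM, and Sirt4 from 6.78 to 9.26 FPKM. The longest transcript of Sirt5 matches transcripts of 15 other annotated genes, 3 of them pseudogenes, at 95% identity or more. The longest match is 843 nt, so how the reads of Sirt5 were divided is uncertain. Sirt2, mainly cytoplasmic, ranged from 26.3 to 31.1 FPKM, and the nucleolar Sirt7 from 23.4 to 29.7 FPKM.

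The acetyltransferases were led by Kat2b (PCAF), one of the pair of GNAT enzymes that acetylate H3K9. It had 23.8, 24.3, 25.9 and 25.4 FPKM, and its paralog Kat2a (GCN5) had 4.53, 5.66, 5.84 and 5.23 FPKM. Kat2b was 4.30 to 5.26 times Kat2a in every mouse, so the ranges did not approach each other. Of the MYST family, Kat8, which acetylates histone H4, ranged from 13.1 to 15.4 FPKM, Kat5 (TIP60) from 8.39 to 9.65 FPKM, Kat7 (HBO1) from 4.21 to 5.80 FPKM, and Kat6a from 2.11 to 3.31 FPKM. Ep300, which acetylates H3K27 at enhancers, had 2.93, 5.01, 4.51 and 4.19 FPKM. Its lowest value and those of Kat6a and Kat7 came from MSM-mother mouse 1.

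Coregulators that bring these enzymes to nuclear receptors differed in level. The corepressor Ncor1, the partner of HDAC3, had 11.8, 13.8, 15.8 and 14.2 FPKM. The p160 coactivators were lower, with Ncoa2 from 5.71 to 8.23 FPKM, Ncoa3 from 3.19 to 4.73 FPKM and Ncoa1 from 2.53 to 3.33 FPKM. Ncoa2 exceeded Ncoa1 by a factor of 2.25 to 2.56. Among readers of acetylation, Brd3 and Brd7 had the lowest coefficients of variation of all members, 2.24% and 2.36%. Brd7 and Brd9, subunits of different SWI/SNF remodellers, ranged from 15.9 to 16.7 FPKM and from 3.70 to 5.23 FPKM, and the BET proteins Brd2 and Brd3 from 19.7 to 23.5 FPKM and from 8.29 to 8.72 FPKM.

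In the H3K9 methylation machinery, the corepressor scaffold Trim28 had 21.0, 19.96, 25.4 and 24.2 FPKM, 2.12 to 2.77 times the level of Setdb1, the methyltransferase that it recruits, which ranged from 8.21 to 9.97 FPKM. Atf7ip, the stabilizing partner of SETDB1, ranged from 3.20 to 5.83 FPKM. Ehmt2 (G9a) had 18.996, 18.4, 23.3 and 22.6 FPKM, and Ehmt1 (GLP), with which it forms a dimer, ranged from 5.11 to 6.81 FPKM. The HP1 genes stood in 1 order in every mouse. Cbx3 (HP1γ) was the highest, from 30.1 to 38.6 FPKM, then Cbx1 (HP1β), from 13.4 to 17.4 FPKM, and Cbx5 (HP1α), with 3.21, 4.27, 4.01 and 3.996 FPKM. Cbx3 was 7.04 to 12.0 times Cbx5, the largest factor coming from MSM-mother mouse 1. Transcripts of Cbx3 share at least 95% identity over 150 nt or more with those of 9 other annotated genes, 7 of them pseudogenes, so how its reads were divided is uncertain. The H3K9 demethylases Kdm3a and Kdm4a ranged from 3.98 to 6.19 FPKM and from 4.76 to 6.76 FPKM. The DNA methyltransferases were among the lowest members, with Dnmt1, the maintenance enzyme, from 2.09 to 3.62 FPKM and Dnmt3a from 2.07 to 3.26 FPKM.

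Whether the B6 and MSM alleles of these genes gave equal RNA could be asked for 14 members. Those were Hdac1, Hdac3, Hdac5, Sirt3, Sirt4, Sirt7, Kat2a, Kat2b, Kat8, Ncoa3, Brd2, Ehmt2, Cbx5 and Kdm4a. A frequency was given for 41.3% of all genes listed, and its presence followed position on the chromosome: of genes that start at or beyond 100 Mb on chromosomes 1 to 15 and X, or 10 Mb on chromosomes 16 to 19, 89.8% had one, and of the rest 1.98%. For the members this division was nearly complete. Of 15 beyond those positions 14 had a frequency, Atf7ip being the exception, and of the 24 before them none had. The allele balance of Trim28, Setdb1, Ehmt1, Cbx1, Cbx3, Kdm3a, Ep300, Dnmt1, Dnmt3a and every other member without a value is therefore not known from these tables.

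In 6 of the 14 the mean of the crosses differed from equal alleles in limma's test on log2 odds (Benjamini-Hochberg adjusted over all 3632 genes, threshold 0.05). That is 42.9% of these members, beside 36.2% of all genes tested, a share close to the background. Toward B6 were 5 (35.7%, beside 22.6% of all genes), namely Cbx5, Sirt3, Kdm4a, Kat2a and Kat2b. Toward MSM was Sirt7 alone (7.14%, beside 13.6%). The differences were small. The median absolute log2 odds was 0.17 over the 14 members and 0.24 over all genes, and 0.28 over the 6 called members against 0.55 over all genes called. No member reached a mean frequency of 0.8 or fell to 0.2, thresholds used in the study for biased genes, which 1.84% and 1.35% of genes passed. The means of the members ran from 0.458 to 0.616.

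**Figure D2:**
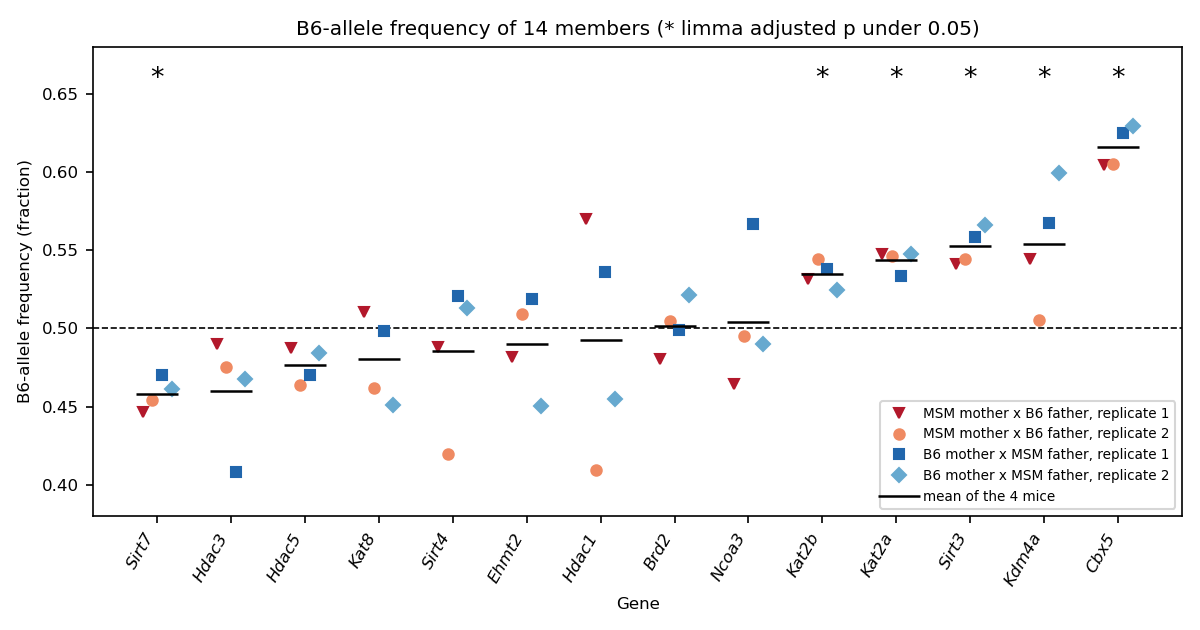
B6-allele frequency (fraction of allele-informative reads) of the 14 members with a value, ordered by their mean, with 1 point per mouse, a black bar at the mean of the 4 mice and a dashed line at 0.5. Stars mark the 6 members past the limma test; Cbx5 lies highest with all mice between 0.604 and 0.630, and Hdac1 has the widest spread, from 0.409 to 0.570.

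Cbx5 had the largest imbalance among the members. HP1α, its product, binds methylated H3K9 in pericentric heterochromatin. Its B6-allele frequencies were 0.604 and 0.605 in the MSM-mother mice and 0.625 and 0.630 in the B6-mother mice. Every mouse gave more B6 than MSM reads, 1.60 to 1 on average. The mice of a cross lay close to each other, with a within-cross SD of 0.0022, and 1.29% of genes had a smaller one. The log2 odds were 0.68 with an SE of 0.04 and a 95% interval of 0.56 to 0.81 (limma, adjusted p = 0.0050). The gene lies on chromosome 15 from 103191544 to 103239816 on the reverse strand (GRCm38, GENCODE M21).

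Sirt3 had 0.541, 0.544, 0.558 and 0.566, all above 0.5, with log2 odds of 0.30, an SE of 0.04 and an adjusted p of 0.0184 (limma). It lies on chromosome 7 from 140863666 to 140882309 on the reverse strand. Kat2a had 0.548, 0.546, 0.533 and 0.548, a narrow band. Its log2 odds were 0.25 (SE 0.04, limma, adjusted p = 0.0283), and it lies on chromosome 11 from 100704746 to 100712465 on the reverse strand. Its paralog Kat2b had 0.531, 0.544, 0.538 and 0.524. Its log2 odds of 0.20 (SE 0.05, limma, adjusted p = 0.0499) were at the threshold, and it lies on chromosome 17 from 53566861 to 53672720 on the forward strand. Thus both H3K9 acetyltransferase genes of the GNAT family gave more B6 reads in all 4 mice, by 1.19 to 1 and 1.15 to 1.

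Kdm4a had 0.544, 0.505, 0.567 and 0.600. Its log2 odds were 0.32 (SE 0.07, limma, adjusted p = 0.0471). Its lowest mouse was close to equal alleles, and its spread was the widest of the called members. It lies on chromosome 4 from 118136957 to 118180043 on the reverse strand. Sirt7 was the member with more MSM reads, at 0.447, 0.454, 0.470 and 0.461, and its log2 odds were -0.24 (SE 0.04, limma, adjusted p = 0.0290). It lies on chromosome 11 from 120618372 to 120625240 on the reverse strand.

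These calls rested on all 4 mice. With any 1 mouse left out, 0 or 1 of the 14 members passed, Cbx5 being the one that passed when an MSM-mother mouse was left out, while all genes called fell from 1316 to between 181 and 514. With each mouse shifted to a median log2 odds of 0, 36% of all genes passed, beside 36.2% without the shift. Of the members, Cbx5, Sirt3 and Sirt7 then passed, and Kat2a, Kat2b and Kdm4a did not (limma adjusted p = 0.0522, 0.101 and 0.0714). All 6 kept their direction under every alternative, and the adjusted p of Cbx5 stayed between 0.0032 and 0.0567.

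The 250 bases upstream of the RefSeq start are shown for the 3 called members in which no annotated exon falls in that window. They are the B6 reference sequence (GRCm38.p6, RefSeq). The frequencies count reads of RNA and do not compare these promoter sequences. The MSM sequence was not used here. Each reads 5′ to 3′ in the direction of its gene, from chr15:103239853-103240102, chr4:118180044-118180293 and chr11:100712468-100712717, all on the reverse strand. Capitals mark a GC box (GGGCGG) or a CCAAT box (CCAAT), searched on both strands, so that CCAAT on the other strand reads ATTGG. No marked motif overlapped another.
Cbx5: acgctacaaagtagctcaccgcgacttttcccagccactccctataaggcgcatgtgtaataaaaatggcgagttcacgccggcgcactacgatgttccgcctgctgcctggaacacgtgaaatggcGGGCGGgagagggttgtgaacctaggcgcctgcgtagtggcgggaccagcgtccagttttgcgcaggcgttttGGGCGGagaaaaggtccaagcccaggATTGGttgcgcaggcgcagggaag
Kdm4a: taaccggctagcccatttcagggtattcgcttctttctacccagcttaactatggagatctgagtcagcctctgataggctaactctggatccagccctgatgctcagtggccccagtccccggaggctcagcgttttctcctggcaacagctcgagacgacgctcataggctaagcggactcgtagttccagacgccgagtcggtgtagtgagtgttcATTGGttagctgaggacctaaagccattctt
Kat2a: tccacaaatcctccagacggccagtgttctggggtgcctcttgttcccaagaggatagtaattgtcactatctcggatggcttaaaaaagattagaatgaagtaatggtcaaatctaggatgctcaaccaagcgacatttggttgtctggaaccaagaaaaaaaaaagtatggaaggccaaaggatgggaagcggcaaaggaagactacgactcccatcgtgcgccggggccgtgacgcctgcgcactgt

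The Cbx5 window held 2 GC boxes and 1 CCAAT box, the Kdm4a window 1 CCAAT box, and the Kat2a window neither. GC content was 59.2% for Cbx5, 53.6% for Kdm4a and 48.8% for Kat2a, beside a median of 62% for the 33 members with an entry in the promoter table and 59.6% for all 6982 listed genes with one. Of those 33 member windows, 24 held a GC box and 14 a CCAAT box; the shares over listed genes were 60% and 37.2%, and 33% and 34.5% over all 27025 promoters tabulated. A TATA box (TATAAA) was in none of the 33, beside 6.7% of listed genes. A motif of the ETS factors (CCGGAAG) was in 6, beside 15.4%.

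Among the 8 members with a frequency that did not pass the test, Hdac1 varied most, at 0.570, 0.409, 0.536 and 0.455. Each cross had a mouse on either side of 0.5, and the mean was 0.492. Hdac1 transcripts match 2 processed pseudogenes over 1444 and 1450 nt at 99.4% and 96.3% identity, so the assignment of its reads is uncertain. Hdac3 lay below 0.5 in all mice, at 0.490, 0.475, 0.408 and 0.468, as did Hdac5, at 0.488, 0.464, 0.470 and 0.484, but neither passed (limma adjusted p = 0.112 and 0.128). Sirt4 had 0.488, 0.419, 0.521 and 0.513, Kat8 0.510, 0.462, 0.499 and 0.451, and Ehmt2 0.482, 0.509, 0.519 and 0.451. Brd2, at 0.481, 0.505, 0.499 and 0.522, and Ncoa3, at 0.465, 0.495, 0.567 and 0.490, had log2 odds of 0.01 and 0.02, the closest to equal alleles. For Brd2 the 95% interval of the log2 odds was -0.16 to 0.17, and for Ncoa3 it was -0.28 to 0.33. In count, 5 of the 14 members were above 0.5 in every mouse (35.7%, beside 33.9% of all genes), 3 were below it in every mouse (21.4%, beside 22.8%), and 6 had mice on both sides.

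Genes beside the called members did not share 1 direction. Within 50 kb, 21 other genes had a frequency, of which 5 were called in the direction of the member and 3 in the opposite one, together 38.1%, beside 36.2% of all genes. Copz1, 32.9 kb from Cbx5, had a mean of 0.627 (limma adjusted p = 0.0054), and Hnrnpa1, 616 bp from Cbx5 and read on the other strand, had a mean of 0.350 (limma adjusted p = 0.0511). Sirt3 shares 342 bp with Psmd13, on the other strand, which had a mean of 0.562 (limma adjusted p = 0.0235), and 707 bp with Ric8a, listed as Ric8, which had a mean of 0.486. Other genes near Sirt3 were far from equal alleles, with means of 0.996 for BC024386, 0.783 for Nlrp6 and 0.0196 for Scgb1c1. Sirt7 overlaps Mafg by 124 bp on the same strand, so reads there cannot be given to one gene, and Mafg had a mean of 0.509. The mean of Pcyt2, 436 bp from Sirt7, was 0.541. Kdm4a, toward B6, had St3gal3 at 2.04 kb with a mean of 0.427. Kat2b had no such neighbour, but its transcript shares 2479 nt at 95.1% identity with the pseudogene Kat2b-ps. Of the members not called, Brd2 overlaps H2-DMa by 3094 bp and Ncoa3 overlaps Sulf2 by 154 bp, both on the other strand. H2-DMa and Sulf2 had means of 0.509 and 0.394. Members without a frequency also overlap genes on the other strand, among them Ncor1 with Ttc19 over 12026 bp, Trim28 with Zbtb45 over 6137 bp and Kat5 with Rnaseh2c over 4006 bp. The libraries were stranded, and no source used here says whether strand was used in counting.

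The crosses were then compared, which asks whether the B6 frequency of a member depended on which parent gave the B6 allele. No member passed limma's test of the cross term after adjustment (adjusted p from 0.873 to 1, beside 0.0826% of all genes called), and 0 of 14 had an unadjusted p under 0.05, beside 5.23%. The mice of the crosses did not overlap for 6 of the 14 (42.9%, beside 34.3%). Cbx5, Sirt3, Sirt4, Sirt7 and Kdm4a were lower in both MSM-mother mice, and Hdac3 was higher. The 95% interval of the difference included 0 for each of the 14. For Kdm4a the mean frequencies were 0.525 with an MSM mother and 0.583 with a B6 mother, and the difference in log2 odds was -0.34 with a 95% interval of -0.77 to 0.08. For Cbx5 it was -0.14, from -0.39 to 0.11. For Kat2a and Kat2b, whose crosses overlapped, the intervals were -0.23 to 0.30 and -0.24 to 0.32. The widest, for Hdac1, ran from -1.28 to 1.22. Both mice of each cross were on the B6 side for the 5 members called toward B6.

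The total level of the members was compared between the crosses with limma on log2(FPKM + 1), a scale that understates the change of low genes. No member passed after adjustment over 8797 genes (lowest adjusted p = 0.376, beside 0.0455% of all genes called). At an unadjusted p under 0.05 were 4 of 39 (10.3%, beside 8.87%), namely Kdm3a, Dnmt3a and Ehmt2, lower with an MSM mother, and Brd9, higher.

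Kdm3a, an H3K9 demethylase with a role in energy metabolism, had 4.16 and 3.98 FPKM in the MSM-mother mice and 6.19 and 5.92 FPKM in the B6-mother mice. The crosses were far apart relative to the gap between mice of a cross. Its log2 fold change, MSM mother minus B6 mother, was -0.48 with an SE of 0.11 (limma unadjusted p = 0.0053, adjusted p = 0.376), and its 95% interval was -0.75 to -0.21. It had an unadjusted p under 0.05 in each of 12 alternatives and an adjusted p under 0.05 in 0 of them. Ehmt2, with the levels given above, had a log2 fold change of -0.28 with an SE of 0.11 (limma unadjusted p = 0.0460). Dnmt3a, a DNA methyltransferase for new sites, had 2.26, 2.07, 3.26 and 2.94 FPKM and a log2 fold change of -0.37 with an SE of 0.13 (limma unadjusted p = 0.0311). Brd9 had 5.23, 4.81, 3.84 and 3.70 FPKM and a log2 fold change of 0.34 with an SE of 0.11 (limma unadjusted p = 0.0273). In none of these 4 did the mice of the crosses overlap. Some markers were higher in the same mice as Kdm3a, Ehmt2 and Dnmt3a. All 6 Kupffer cell markers were, as given above. The 4 listed erythroid markers summed to 308 and 128 FPKM with an MSM mother and 769 and 449 FPKM with a B6 mother, and 2 of the 4 did not overlap. Hba-a2 carried most of the erythroid sum, whereas Hba-a1 and Alas2 were lowest in B6-mother mouse 2. The 6 sinusoidal endothelial markers summed to 127 and 121 against 133 and 139 FPKM, and 3 of the 6 did not overlap. Of the 7 listed hepatocyte markers, 3 were higher in both MSM-mother mice than in both B6-mother mice and 1 was lower. Of the 5 listed stellate markers, 1 was higher and 1 lower in that way. The part of these cells in the differences was not tested.

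Just outside that limit were Dnmt1, with 2.09, 2.57, 3.62 and 2.99 FPKM and a log2 fold change of -0.37 (SE 0.15, limma unadjusted p = 0.0504), and Trim28, with a log2 fold change of -0.27 (SE 0.11, limma unadjusted p = 0.0595). In count, 12 members had both MSM-mother mice below both B6-mother mice (30.8%, beside 19.4% of all genes), 6 had both above (15.4%, beside 23%), and 21 overlapped. The 12 were Hdac11, Sirt1, Sirt4, Kat2b, Kat7, Ncoa3, Ncor1, Trim28, Ehmt2, Kdm3a, Dnmt1 and Dnmt3a. The 6 were Hdac1, Hdac2, Sirt3, Brd3, Brd9 and Cbx1. Of the 12 that were below, 11 have a longest transcript over 2500 nt. Among all listed members, 13 have one under 2500 nt, 14 one of 2500 to 5000 nt and 12 one over 5000 nt. Over all genes these classes held 3504, 3561 and 1506. By definition the lowest mouse of the 12 that were below is an MSM-mother mouse, and it was MSM-mother mouse 1 for 5 of them.

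Transcript length moved with the levels of MSM-mother mouse 1. That mouse was the lowest of the 4 for 17 of 39 members (43.6%, beside 26.4% of all genes) and the highest for 12 (30.8%, beside 39.1%). Of the 12 members with a longest transcript over 5000 nt it was the lowest for 10, beside 68.5% of all genes of that length. Of the 13 under 2500 nt it was the lowest for 0 and the highest for 10, beside 5.91% and 64.0% of all such genes. For Ep300 its log2(FPKM + 1) was 0.50 below the mean of the other mice, for Atf7ip 0.53 below and for Ncoa3 0.44 below, whereas for Sirt5 it was 0.43 above and for Sirt3 0.28 above. Across members its deviation from the mean of the mice had a Pearson correlation of -0.80 with log2 transcript length (n = 39 genes, of the same 4 libraries), and of -0.53 across 8571 genes. In B6-mother mouse 1 the correlation was 0.59 across members and 0.31 across the 8571 genes. Deviations are taken from the mean of the same 4 mice, so the correlations of the mice are not independent.

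**Figure D3:**
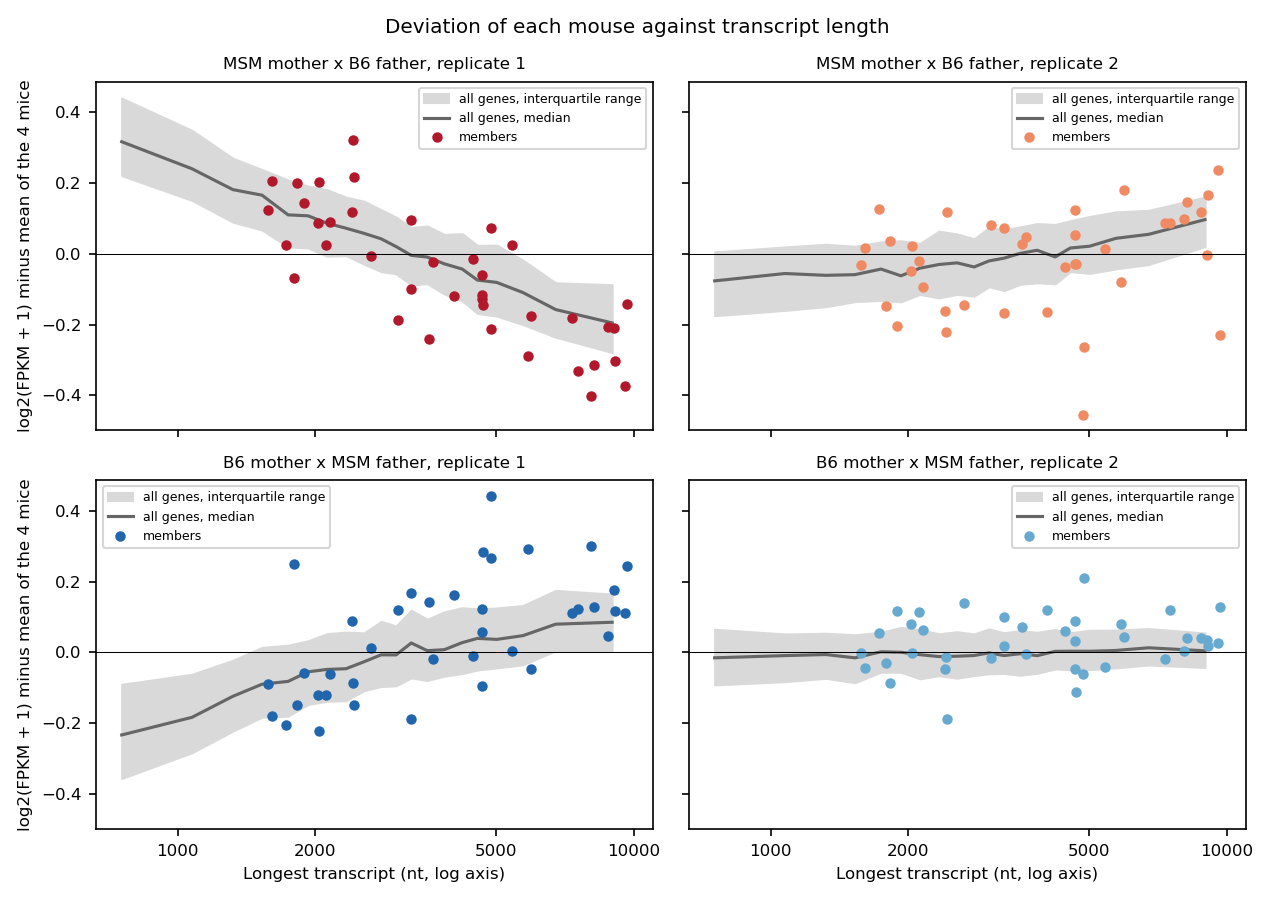
Deviation of log2(FPKM + 1) from the mean of the 4 mice (y axis) against the length of the longest annotated transcript in nt (x axis, log), with 1 panel per mouse; coloured points are the 39 members, and the grey line and band give the median and interquartile range of all genes in 20 length bins. In MSM-mother mouse 1, the upper left panel, the members fall with length (r = -0.80).

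Leaving that mouse out turned the sign of the difference between crosses for 10 members, none of which had passed in either fit. Ep300 went from -0.14 to 0.17, and Sirt5 from 0.10 to -0.17. Without that mouse the log2 fold change of the members with the smallest p-values kept its sign, at -0.50 for Kdm3a, -0.42 for Dnmt3a, -0.31 for Ehmt2, -0.30 for Trim28 and 0.29 for Brd9, and Dnmt1 went from -0.37 to -0.27. With the length trend of each mouse removed, an alternative chosen after seeing the data, the values were -0.42 for Kdm3a, -0.26 for Dnmt3a, -0.25 for Ehmt2, -0.30 for Dnmt1, -0.26 for Trim28 and 0.30 for Brd9. Then 11 members had both MSM-mother mice below (28.2%, beside 23% of all genes) and 6 above (15.4%, beside 23.5%). All 11 were among the 12 named above. Other single mice also mattered. The sign turned for 7 members without B6-mother mouse 1, for 6 without MSM-mother mouse 2 and for 2 without B6-mother mouse 2.

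**Figure D4:**
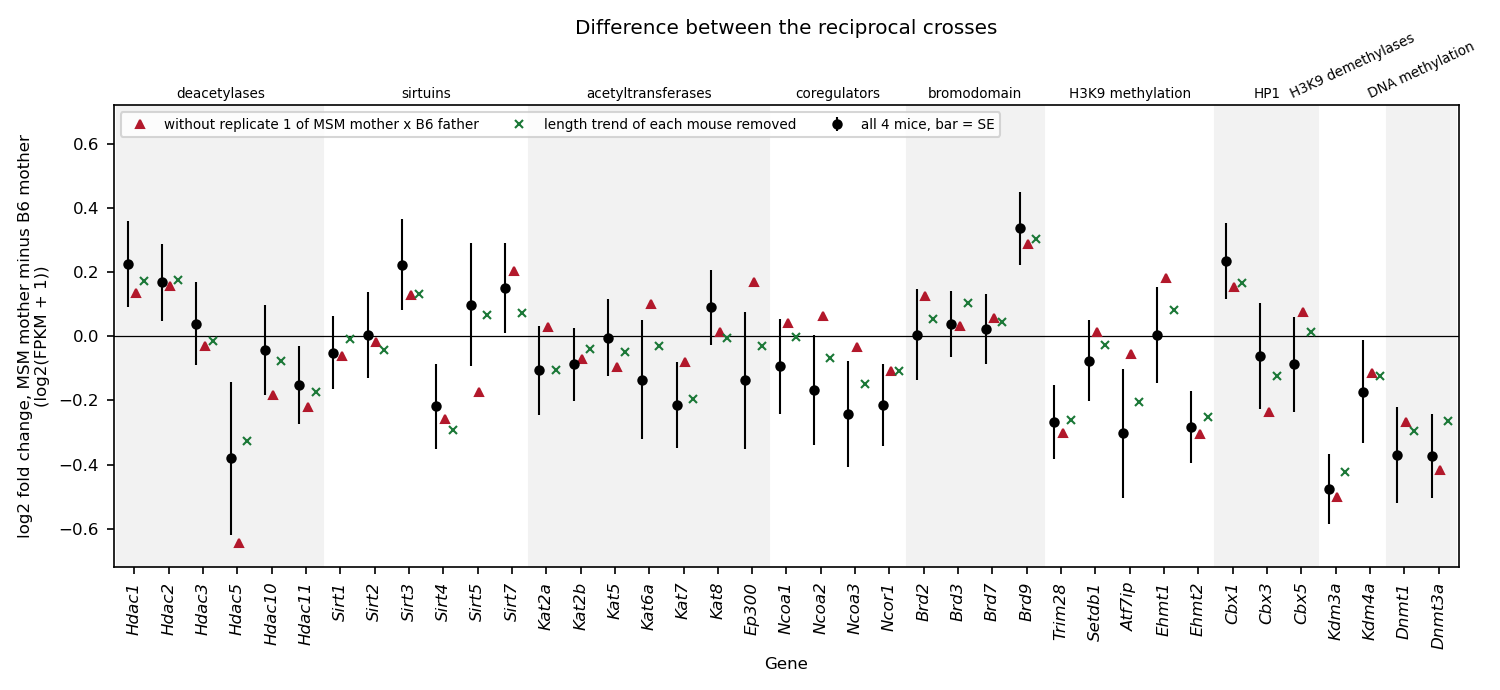
Difference in log2(FPKM + 1) between the crosses, MSM mother minus B6 mother, for the 39 members by role. Black points with SE bars use all 4 mice, red triangles leave out MSM-mother mouse 1, and green crosses have the length trend of each mouse removed; Kdm3a is the lowest of the black points at -0.48 and Brd9 the highest at 0.34.

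Levels were also summed over roles. The 5 listed genes of H3K9 methylation had 56.5 and 59.5 FPKM with an MSM mother and 70.2 and 66.2 FPKM with a B6 mother. Trim28 and Ehmt2, which did not overlap between the crosses, carried most of this sum, and Setdb1, Atf7ip and Ehmt1 overlapped. The marker sums of Kupffer and erythroid cells were higher in the same mice, the erythroid one mostly through Hba-a2. The 7 acetyltransferases had 62.6, 65.7, 66.95 and 66.7 FPKM, and the 6 deacetylases 88.9, 76.2, 85.4 and 85.7 FPKM. The 6 sirtuins had 150.1, 137, 125 and 139 FPKM, of which Sirt3 made the largest share.

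For the wider machinery, a list of 107 further genes of acetylation complexes, corepressor complexes and H3K9 methylation was taken, of which 91 were listed and 41 had a frequency. Toward B6 were 11 of the 41, or 26.8% of them, beside 22.6% of all genes, and toward MSM were 0, beside 13.6%. The largest were Mbd2, a reader of methylated DNA in the NuRD complex, at 0.640, 0.588, 0.649 and 0.624, Rcor3, a CoREST scaffold, at 0.642, 0.635, 0.610 and 0.604, and Rbbp4, a histone chaperone shared by several deacetylase complexes, at 0.673, 0.595, 0.608 and 0.585. Their log2 odds were 0.74, 0.72 and 0.68 (limma adjusted p = 0.0116, 0.0048 and 0.0235). The median log2 odds of the list was 0.14, beside 0.06 over all genes and -0.02 over the 14 members. Between the crosses 0 of 91 passed on expression and 0 of 41 on frequency after limma's adjustment. At an unadjusted p under 0.05 were 5 of 91 on expression (5.49%, beside 8.87% of all genes) and 5 of 41 on frequency (12.2%, beside 5.23%).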

How the data were processed

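Liver poly(A) RNA of 4 mice was sequenced by the authors as stranded read pairs. After trimming with Trim Galore!, the authors used TopHat2 to align reads to mm10 with polymorphic sites masked, and they separated the alleles with SNPsplit. Versions are not given in the sources used here. The deposited FPKM values are per kilobase, scaled to mapped fragments; the tool behind them is not given in the sources used here. The deposited B6-allele frequency is a fraction, the B6-derived reads of a gene divided by those of both alleles, from Cuffdiff counts. The count data behind either were not used here, so edgeR or DESeq2 could not be run and depth is unknown.

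Here, limma 3.58.1 was fitted to log2 odds of the frequency (limited to 0.01 and 0.99) with the crosses weighted equally, and, with a variance trend, to log2(FPKM + 1), keeping mean FPKM of at least 1. All genes entered each fit, and limma drew the variance of each gene toward that of the others. The p-values were adjusted by the Benjamini-Hochberg method, and the threshold was 0.05. The fits were also run on simulated data with effects larger than any seen in the members. The simulation therefore does not show how well effects of the members' size are found. Positions and transcript lengths came from GENCODE M21, or by symbol from RefSeq (GRCm38), which also gave current symbols for 5 genes of the further lists. Near-identical transcripts were found with blastn 2.17.0. All members were named; of the 107 further genes, the 3 with the largest log2 odds among those called in each direction were. The members and lists were chosen with earlier results of these data known. Replicate numbers do not mark a shared litter or day in the labels, and the mice were not treated as paired.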

Additional observations from a re-analysis of the deposited data

How the results depend on the processing

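The count of members with allelic imbalance was 6 of 14 and stayed at 5 or 6 with other limits on the frequency, on the frequency scale, with a variance trend, among genes beyond the coordinates only, or at a mean FPKM of at least 5. It was 3 when each mouse was shifted to a median log2 odds of 0 (2 toward B6, 1 toward MSM), and from 0 to 1 with 1 mouse left out, where the lone mouse of a cross is assumed to vary like the others. The shift left 1309 of 3632 genes called (36%), and the settings with 5 or 6 members called 35.4% to 40.3% of all genes. With the replicate number as a block the count of members was 1, Cbx5, and all genes called fell from 1316 to 775. For each gene the difference of replicate 1 minus replicate 2 was taken in each cross. Across genes, the correlation of these differences between the crosses was 0.15 for log2 odds and 0.004 for expression. That does not pair the same-numbered mice. The block also moved expression calls over all genes from 4 to 285, with 0 members. Leaving out 1 mouse gave 13 to 21 such calls, again with 0 members. The counts of members called between crosses, on frequency or expression, and past the thresholds of the study were 0 under every alternative run. Over all members and alternatives, 10 of 152 values on imbalance changed sign, none of them of a member called on imbalance. On the cross term 10 of 152 changed sign, and Kat2a and Kat2b were among these members. On expression 35 of 458 did, and Cbx5, Kat2a and Kdm4a were among these members. Count models were not run because the tables hold no counts. Tests of 2 against 2 mice limit all these values.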

Other observations

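In the wider list, genes of chromosome X had frequencies that followed the mouse; no member with a value lies on that chromosome. These were singled out after their values were seen. Rbbp7, a histone chaperone of deacetylase complexes, had 0.240, 0.512, 0.333 and 0.206, Atrx, a remodeller of H3K9-methylated chromatin, had 0.327, 0.520, 0.326 and 0.275, and Phf8, a demethylase, had 0.304, 0.513, 0.277 and 0.280. Over the 78 genes of chromosome X with a frequency the medians were 0.323, 0.532, 0.325 and 0.265, against 0.510 to 0.512 over the other 3554 genes. MSM-mother mouse 2 was the mouse with near-equal alleles in all 3 genes. None of the 3 passed the imbalance test (limma adjusted p = 0.106, 0.0761 and 0.0632 in the order named).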
